A study of Mus musculus with 7 samples.

Results

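Lysosomal genes were followed in mouse macrophages given 1 or 2 rounds of bacterial ligand. The set holds enzymes, activator proteins, membrane proteins and proton pump subunits of the lysosome together with the regulator Tfeb. Of 41 listed genes, 40 had a probe set annotated with their symbol alone and are described here, out of 18193 genes with such a probe set on the array. Cd63 is not analysed here. The 40 genes had 91 such probe sets between them, 27 genes having several and 13 having 1, and for a gene with several the one with the highest average level across the 7 arrays was taken.

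The lysosome is the acidic compartment in which a cell digests material taken up from outside or delivered by autophagy. The vacuolar proton pump acidifies it, and soluble hydrolases such as the cathepsins, glycosidases and lipases work there, while heavily glycosylated membrane proteins such as Lamp1 and Lamp2 line its limiting membrane. In macrophages the lysosome degrades phagocytosed bacteria and dead cells. The transcription factor Tfeb and its relatives bind an E-box element in the promoters of many of these genes, known as the CLEAR element.

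The macrophages were grown from bone marrow and received a first incubation of 24 h and a second of 3 h. The ligands were Pam3CSK4, a synthetic bacterial lipopeptide sensed at the cell surface through Tlr2, and MDP, the muramyl dipeptide of peptidoglycan, sensed in the cytosol through Nod2. The 7 conditions were Pam3CSK4 then Pam3CSK4, Pam3CSK4 then MDP, MDP then Pam3CSK4, MDP then MDP, no ligand then Pam3CSK4 (naive given Pam3CSK4), no ligand then MDP (naive given MDP), and no ligand in either incubation (unstimulated). The labels write the doses as 1 mg per ml for Pam3CSK4 and 10 mg per ml for MDP, a unit that may have lost a micro sign, which the labels do not settle. They give no mouse strain or age and hold no culture that had a first ligand but no second. Each condition had 1 array, so every difference below is between 2 arrays, has no replicate check and no p-value, and the number of arrays limits its precision.

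Levels are log2 expression values as deposited. Differences are log2 differences, in which 1 unit is a fold of 2, and a gene is counted as higher or lower at 2-fold. Levels of different genes come from different probes and are not set against each other. Array medians lay between 5.48 and 5.55, and all 40 lysosomal genes lay above the array median on all 7 arrays. For 10 of them the mean was within 1 log2 unit of the highest value on the arrays, and among these 10 no gene spanned more than 0.40 between its highest and lowest array. All 8 measured macrophage markers were above the array median throughout, and their summed levels were 105 and 104 on the 2 arrays of Pam3CSK4-pretreated cells and 99.9 to 102 on the other 5. Of markers of other cells, 6 of 8 neutrophil, 4 of 6 B cell, 3 of 7 T and NK cell, 2 of 7 stromal, 1 of 6 dendritic cell and 1 of 5 mast and erythroid cell markers were above the array median on every array. The B cell marker Ighm was at 7.73 and 7.87 after Pam3CSK4 pretreatment, 8.54 and 8.49 after MDP pretreatment and 10.42 to 10.50 without pretreatment. Cd79b, another B cell marker, ran the other way, at 7.97 and 8.16, 7.66 and 7.66, and 7.16 to 7.58. Fewer cells of a type and less RNA per cell cannot be told apart in such samples. Control probe sets for 18S ribosomal RNA were 1.70 higher in Pam3CSK4-pretreated cells given Pam3CSK4 than in unstimulated cells, against 0.28 to 0.48 higher on the other 5 stimulated arrays, and their part in the results was not tested.

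Promoter sequences are shown for 5 of the genes, because some hold the E-box that Tfeb and its relatives bind and some do not. RefSeq promoter windows of build GRCm38.p6 were matched by symbol for 33 of the 40 genes, in 40 windows, and the 250 bases before each annotated start were searched on both strands for CACGTG and for CACGTGA, which contains it. CACGTG was present in the windows of 10 of the 33 genes (30.3%), against 1854 of 27025 genes with a promoter in the table (6.86%). CACGTGA was present in 9 of the 33 (27.3%), against 3.58% of all. The genes with CACGTG were the proteases Ctsa, Ctsd, Ctsl and Lgmn, the glycosidases Gla, Gaa and Naglu, the membrane proteins Lamp1 and Mcoln1, and the pump subunit Atp6v1a. Ctsb, Ctsh, Npc1, Atp6v0d2, Atp6v1b2, Atp6v1h and Asah1 had no window. A match describes these letters only and is not a binding site, and a window without one says nothing about the factor.

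Each sequence runs from 250 bases to 1 base before the annotated start of its window, 5′ to 3′ on the strand of the gene, with CACGTG in capitals. Lamp1 (chr8:13158911-13159160, plus strand) held 4 copies, with their first bases at positions -61, -45, -28 and -15 from the start. Mcoln1 (chr8:3500269-3500518, plus strand) held 2, at -71 and -45, and Ctsd (chr7:142387828-142388077, minus strand) held 2, at -245 and -98. Acp2 (chr2:91202662-91202911, plus strand) and Ctsk (chr3:95498960-95499209, plus strand) held 0 and are shown because their expression differed by 2-fold between arrays. The annotated start used for Acp2 lies inside the gene coordinates given below, so its window overlaps them from base 91202812 on.
Lamp1 promoter: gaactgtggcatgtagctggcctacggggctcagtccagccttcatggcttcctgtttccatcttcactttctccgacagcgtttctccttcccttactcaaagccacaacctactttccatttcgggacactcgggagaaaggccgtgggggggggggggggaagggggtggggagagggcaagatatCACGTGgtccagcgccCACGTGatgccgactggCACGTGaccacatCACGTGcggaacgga
Mcoln1 promoter: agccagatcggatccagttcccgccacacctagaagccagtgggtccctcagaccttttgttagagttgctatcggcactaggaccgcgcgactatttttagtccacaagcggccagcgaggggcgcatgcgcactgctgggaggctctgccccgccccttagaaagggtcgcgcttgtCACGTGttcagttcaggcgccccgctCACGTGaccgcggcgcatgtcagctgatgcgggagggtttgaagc
Ctsd promoter: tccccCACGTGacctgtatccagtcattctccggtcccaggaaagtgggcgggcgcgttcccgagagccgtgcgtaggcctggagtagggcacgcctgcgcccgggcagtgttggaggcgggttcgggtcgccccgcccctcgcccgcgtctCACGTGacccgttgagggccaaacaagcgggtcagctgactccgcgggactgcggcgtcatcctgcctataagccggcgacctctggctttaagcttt
Acp2 promoter: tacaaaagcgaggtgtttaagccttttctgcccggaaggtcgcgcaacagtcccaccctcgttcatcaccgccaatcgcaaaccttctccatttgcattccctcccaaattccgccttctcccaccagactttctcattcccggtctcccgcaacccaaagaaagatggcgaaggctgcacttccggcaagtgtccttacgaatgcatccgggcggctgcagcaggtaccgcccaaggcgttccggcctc
Ctsk promoter: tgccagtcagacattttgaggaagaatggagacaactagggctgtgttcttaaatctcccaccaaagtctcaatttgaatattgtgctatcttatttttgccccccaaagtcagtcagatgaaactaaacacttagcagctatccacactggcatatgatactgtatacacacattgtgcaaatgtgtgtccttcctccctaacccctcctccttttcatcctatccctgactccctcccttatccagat

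Most of the lysosomal genes differed little between conditions. The distance between the highest and the lowest array had a median of 0.35 over the 40 genes, against 0.39 over all genes, which were not matched to the 40 for level. It was below 0.5 for 28 of the 40 (70.0%), against 66.3% of all genes, and at least 1 for 5 of the 40 (12.5%), against 10.6% of all genes. Those 5 genes were the phosphatases Acp5 and Acp2, the collagen-degrading cathepsin Ctsk, the sialidase Neu1 and the pump subunit Atp6v0d2. In the 13 comparisons made, the same 5 were at least 2-fold apart at least once, and the other 35 genes were not in any of them. The smallest distance, 0.05, was that of Psap, the precursor of the saposins, whose level lay within 1 log2 unit of the highest value on every array. Of the 4 genes past 2-fold that had a promoter window, 0 held CACGTG, against 10 of the 29 never past it (34.5%) and 6.86% of all genes. Atp6v0d2 had no window, and 4 genes are too few to read a link between motif and expression from these counts.

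**Figure D1:**
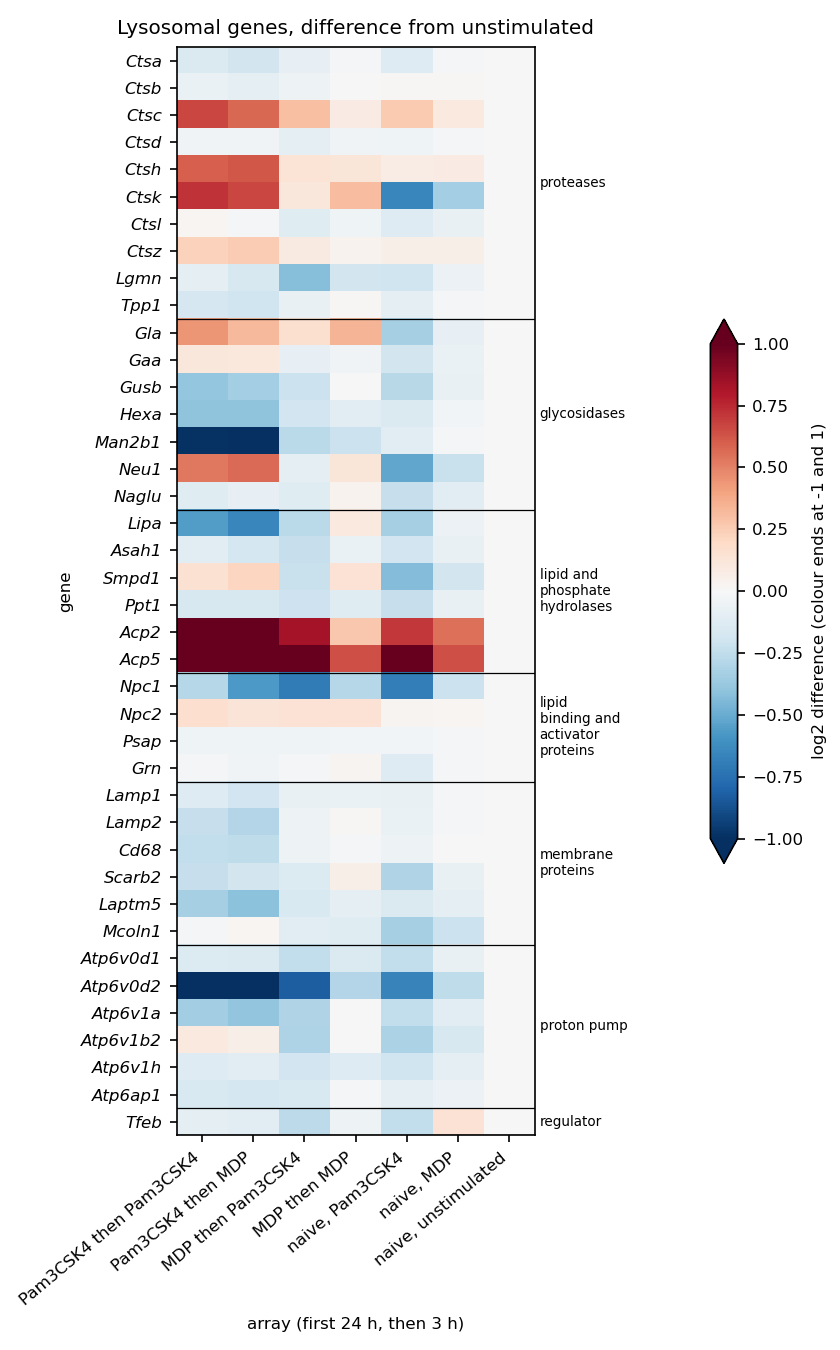
Log2 difference of each of the 40 lysosomal genes (rows, grouped by role) from unstimulated cells on each of the 7 arrays (columns), red for higher and blue for lower, with the colours ending at -1 and 1. The 2 columns of Pam3CSK4-pretreated cells are coloured most strongly, with Acp5 and Acp2 at the red end and Man2b1 and Atp6v0d2 at the blue end.

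Comparisons with unstimulated cells set each array of cells given 1 or 2 ligands against the unstimulated array, which these 6 comparisons share. In naive cells given MDP, 0 of the 40 were past 2-fold in either direction, against 0.583% of all genes higher and 0.17% lower. In naive cells given Pam3CSK4, 1 was higher, Acp5, and 0 were lower, against 2.27% and 1.95% of all genes. MDP given after MDP left 0 higher and 0 lower, against 0.39% and 0.0385%. MDP-pretreated cells given Pam3CSK4 again had 1 higher, Acp5, and 0 lower, against 3.03% and 1.8%.

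In Pam3CSK4-pretreated cells given Pam3CSK4, 2 genes were higher than in unstimulated cells, Acp5 and Acp2, and 1 was lower, Atp6v0d2, against 2.66% and 2.29% of all genes. The same 3 genes were past 2-fold in the same directions in Pam3CSK4-pretreated cells given MDP, where 2.78% of all genes were higher and 2.59% lower. With 40 genes these counts are a few genes at most, no excess over all genes is read from them, and Acp5 was the member past 2-fold in every comparison of Pam3CSK4-exposed cells with unstimulated cells.

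As deposited, small differences ran mostly downward in naive cells, and less so with cyclic loess. In naive cells given Pam3CSK4, 33 of the 40 lay below the median of all genes, and the median of the 40 was -0.16, against 0.00 for all genes. With cyclic loess normalization 26 did, and the median of the 40 was -0.06, against -0.01 for all genes. In naive cells given MDP, 32 did, with a median of -0.06 against 0.00, but with cyclic loess 24 did, with a median of -0.01 against 0.00. These displacements are small and are given relative to the median of all genes. Centring each array on the median level of 14 housekeeping genes moves that median by up to 0.32. The median difference of those 14 from unstimulated cells was smaller in size, -0.07 and -0.10 in Pam3CSK4-pretreated cells given Pam3CSK4 or MDP.

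On the pretreated arrays the displacement depended on the normalization as well. As deposited, the median of the 40 was -0.11 in Pam3CSK4-pretreated cells given Pam3CSK4, -0.12 in Pam3CSK4-pretreated cells given MDP, -0.11 in MDP-pretreated cells given Pam3CSK4 and -0.01 in MDP-pretreated cells given MDP, against 0.01, 0.00, -0.01 and -0.01 for all genes in the same comparisons. With cyclic loess the medians of the 40 were -0.01, -0.01, -0.02 and 0.03, against 0.01, 0.01, 0.00 and 0.01 for all genes. In those comparisons 27, 27, 31 and 19 of the 40 lay below the median of all genes as deposited, and 22, 22, 25 and 16 with cyclic loess.

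Setting pretreated cells against naive cells given the same ligand asks whether the first exposure altered the later level, and pairs of these comparisons share a naive array. After Pam3CSK4 and again Pam3CSK4, 2 of the 40 were at least 2-fold higher than in naive cells given Pam3CSK4, Ctsk and Neu1, and 1 was lower, Atp6v0d2, against 2.41% and 2.3% of all genes. After Pam3CSK4 and then MDP, 2 were higher than in naive cells given MDP, Acp5 and Ctsk, and 1 was lower, again Atp6v0d2, against 2.14% and 1.71%. MDP pretreatment gave 0 higher and 0 lower with either second ligand, against 0.385% and 0.291% of all genes when MDP followed and 0.297% and 0.022% when Pam3CSK4 followed. The members' medians were 0.09, -0.08, 0.01 and 0.02 in these 4 comparisons, against 0.01, 0.00, -0.01 and 0.00 for all genes, and 0.08, -0.01, 0.01 and 0.00 with cyclic loess.

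Between the ligands, Acp5 was the member past 2-fold. In naive cells, Pam3CSK4 gave 1 gene higher than MDP and 0 lower, against 1.4% and 0.709% of all genes. In MDP-pretreated cells, Pam3CSK4 also gave 1 higher than MDP and 0 lower, against 2.41% and 1.42%. In Pam3CSK4-pretreated cells, 0 were higher and 0 lower with Pam3CSK4 than with MDP, against 0.0% and 0.0055%, and this pair of arrays was the closest of all, with a robust SD of the differences over genes of 0.11. The medians of the 40 were -0.11, -0.08 and 0.02, against -0.03, 0.00 and 0.00 for all genes, and -0.06, -0.04 and 0.01 with cyclic loess.

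**Figure D2:**
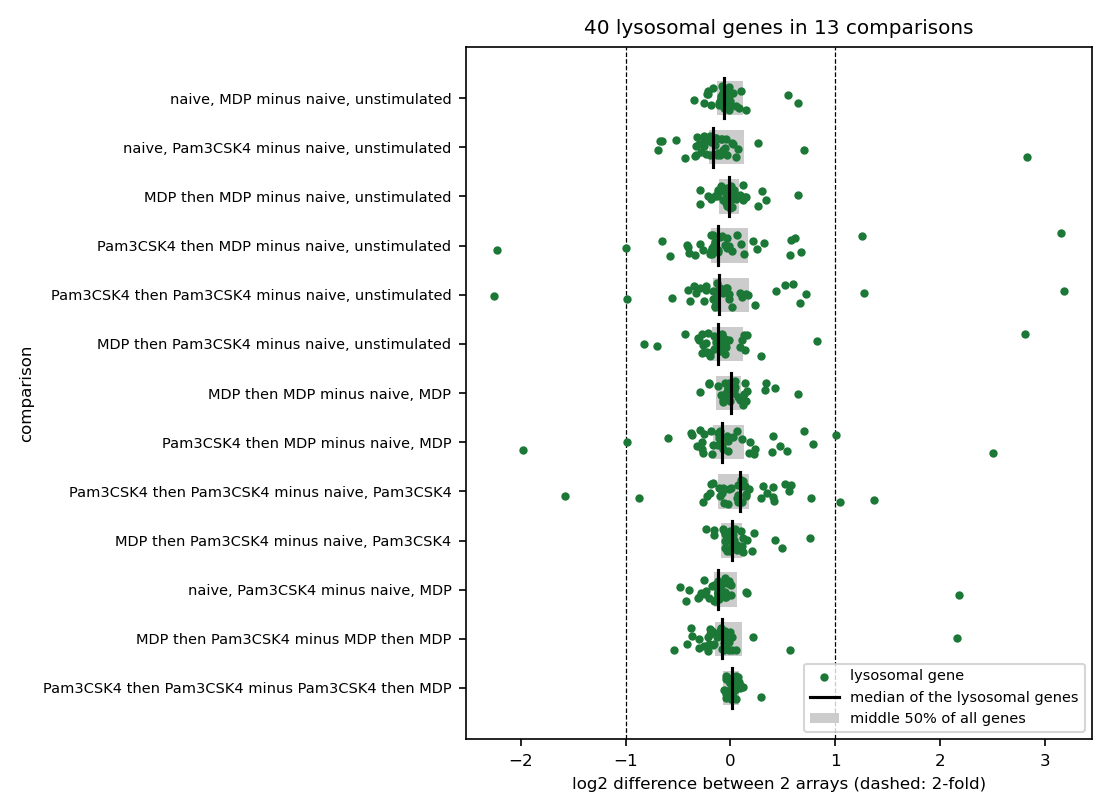
Log2 differences of the 40 lysosomal genes (green points) in each of the 13 comparisons (rows), with their median (black bar) and the range of the middle 50% of all genes (grey). Most points lie in or near the grey range in all comparisons, and points beyond the dashed 2-fold lines are few, 3 in each comparison of Pam3CSK4-pretreated cells with unstimulated or naive cells.

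Among the proteases, Ctsk had the widest distance. Ctsk encodes cathepsin K, a cysteine protease that cuts collagen and is best known in osteoclasts (chr3:95499210-95509387). Its level was 8.27 in Pam3CSK4-pretreated cells given Pam3CSK4, 8.22 in Pam3CSK4-pretreated cells given MDP, 7.66 in MDP-pretreated cells given Pam3CSK4, 7.85 in MDP-pretreated cells given MDP, 6.90 in naive cells given Pam3CSK4, 7.20 in naive cells given MDP and 7.55 in unstimulated cells. The 2 arrays of naive stimulated cells were the lowest, below unstimulated cells, and all 4 arrays of pretreated cells were above unstimulated cells. The difference was 1.38 (2.59-fold) for repeated Pam3CSK4 against naive cells given Pam3CSK4, and 1.01 (2.02-fold) for Pam3CSK4 then MDP against naive cells given MDP.

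The second of these differences was 0.88, short of 2-fold, with 32 added to the linear values. With MDP pretreatment the same differences were 0.76 for Pam3CSK4 as second ligand and 0.65 for MDP. Against unstimulated cells Ctsk was at 0.73 in Pam3CSK4-pretreated cells given Pam3CSK4 and -0.65 in naive cells given Pam3CSK4.

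Since fibroblasts and osteoclasts also make Ctsk, their markers are given beside it. Of 7 stromal markers, the collagen gene Col1a2 and the proteoglycan Dcn were above the array median throughout and the other 5 were below it on all 7 arrays. Dcn was at 8.03 and 8.34 on the 2 arrays of Pam3CSK4-pretreated cells and between 6.28 and 6.69 on the other 5, and the summed level of the 7 was 38.1 and 38.7 on those 2 arrays and 35.6 to 36.4 on the others. Of 6 osteoclast markers, Calcr and Oscar were below the array median on all 7 arrays and Ocstamp on 4, while Dcstamp, Nfatc1 and Mmp9 were above it throughout. Mmp9 was at 9.08 and 9.44 on the Pam3CSK4-pretreated arrays and at 5.70 in unstimulated cells. The other markers did not rise with Mmp9 on those 2 arrays. Dcstamp was at 6.07 and 6.07 there and between 6.36 and 6.90 on the other 5. Nfatc1 was at 8.54 and 8.59 there and between 8.84 and 9.14 on the other 5, and Ocstamp was below the array median on both. The summed level of the 6 was 38.1 and 38.6 on the Pam3CSK4-pretreated arrays and 35.7 to 39.0 on the others. Their part in the Ctsk result was not tested.

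Other proteases moved less than 2-fold. Ctsh, an aminopeptidase, was at 13.37 and 13.39 in Pam3CSK4-pretreated cells given Pam3CSK4 or MDP, and between 12.77 and 12.90 on the other 5 arrays. Ctsc, the dipeptidyl peptidase that activates granule serine proteases, was at 13.92 and 13.82 on the same 2 arrays and between 13.25 and 13.54 on the others. By the probe sets used, both genes were highest on the 2 Pam3CSK4-pretreated arrays, as was the carboxypeptidase Ctsz, at 14.29 and 14.31 against 14.06 to 14.15.

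The remaining proteases were near level. The aspartic protease Ctsd lay between 14.28 and 14.38 on the 7 arrays, and the cysteine protease Ctsl between 14.23 and 14.38. Ctsb, another cysteine cathepsin, was at 14.66 and 14.63 in Pam3CSK4-pretreated cells given Pam3CSK4 or MDP, 14.67 and 14.72 in MDP-pretreated cells given Pam3CSK4 or MDP, 14.74 and 14.74 in naive cells given Pam3CSK4 or MDP, and 14.73 in unstimulated cells. The carboxypeptidase Ctsa, which also stabilizes Neu1, lay between 13.45 and 13.63, and the tripeptidyl peptidase Tpp1 between 13.25 and 13.45. The asparaginyl endopeptidase Lgmn, which processes other cathepsins, had its lowest value, 13.47, in MDP-pretreated cells given Pam3CSK4 and lay between 13.70 and 13.90 elsewhere.

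For several proteases the probe sets of 1 gene disagreed. The second Ctsh probe set differed from unstimulated cells by -0.05 and 0.03 in Pam3CSK4-pretreated cells given Pam3CSK4 or MDP, against 0.60 and 0.62 for the one used. The second Tpp1 probe set differed by -0.64 and -0.70 there, against -0.17 and -0.20 for the one used. Ctsb had 5, and the one used differed by -0.07 between Pam3CSK4-pretreated cells given Pam3CSK4 and unstimulated cells. A second probe set of Ctsb was at 11.98 in Pam3CSK4-pretreated cells given Pam3CSK4, 11.91 in Pam3CSK4-pretreated cells given MDP and 13.44 in unstimulated cells, differences of -1.46 and -1.54, while the other 4 stimulated arrays differed from unstimulated cells by -0.44 to -0.01. A further one differed by -0.64 and -0.74 in the same comparisons.

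Ctsc had 3 probe sets, and 2 of them were high where Pam3CSK4 was the second ligand and not the first. The first of these Ctsc probe sets was at 8.60 in Pam3CSK4-pretreated cells given Pam3CSK4, 8.85 in Pam3CSK4-pretreated cells given MDP, 9.71 in MDP-pretreated cells given Pam3CSK4, 7.73 in MDP-pretreated cells given MDP, 9.71 in naive cells given Pam3CSK4, 8.47 in naive cells given MDP and 7.73 in unstimulated cells. The other Ctsc probe set had the same 2 highest arrays, at 9.12 in MDP-pretreated cells given Pam3CSK4 and 9.04 in naive cells given Pam3CSK4, against 6.84 in unstimulated cells. The one used differed by 0.30 and 0.26 there. Which transcript form each probe set measures was not tested.

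**Figure D3:**
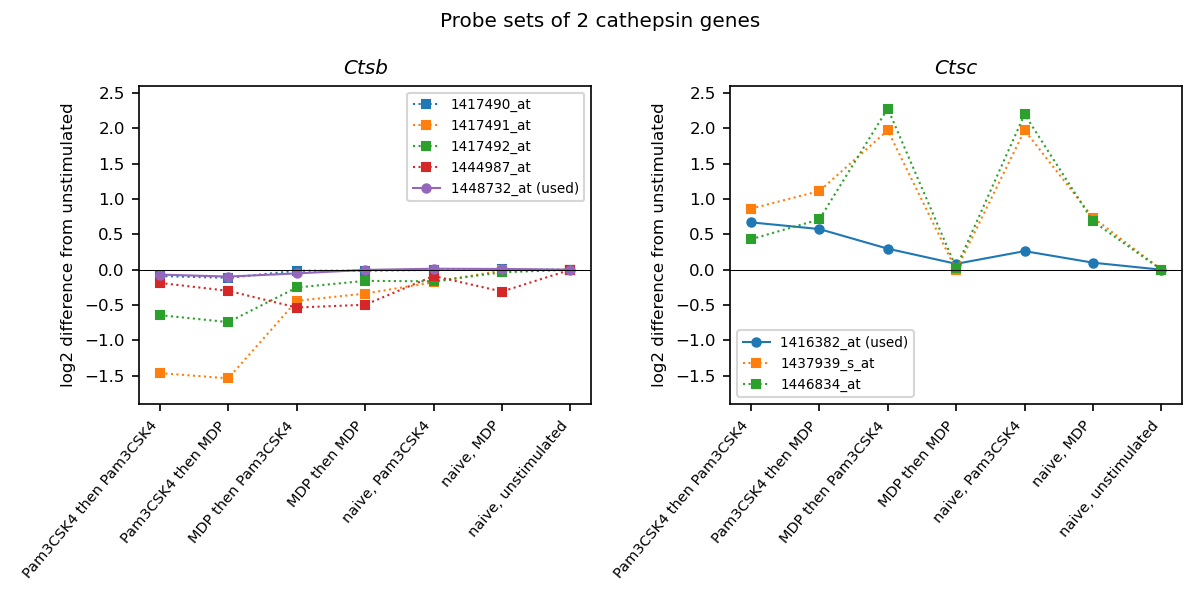
Log2 difference from unstimulated cells (vertical axis) for each probe set of Ctsb and Ctsc on each of the 7 arrays (horizontal axis), with the probe set used drawn as a solid line and the others dotted. One Ctsb probe set lies at -1.46 and -1.54 on the Pam3CSK4-pretreated arrays while the one used stays near 0, and 2 Ctsc probe sets are near 2 on both arrays with Pam3CSK4 as the second ligand in naive or MDP-pretreated cells.

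The glycosidases remove sugars from glycoproteins and glycolipids. In naive cells all 7 lay below the median of all genes with Pam3CSK4 and all 7 with MDP (7 and 5 with cyclic loess), and their differences from unstimulated cells ran from -0.52 to -0.12 with Pam3CSK4 and from -0.23 to -0.02 with MDP. For Pam3CSK4 against MDP in naive cells the median difference of the 7 was -0.12, and all 7 lay below the median of all genes as deposited and with cyclic loess. None of these differences reached 2-fold.

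Neu1, the lysosomal sialidase (chr17:34931253-34937297), was also highest after Pam3CSK4 pretreatment. Neu1 was at 10.85 in Pam3CSK4-pretreated cells given Pam3CSK4, 10.89 in Pam3CSK4-pretreated cells given MDP, 10.22 in MDP-pretreated cells given Pam3CSK4, 10.44 in MDP-pretreated cells given MDP, 9.80 in naive cells given Pam3CSK4, 10.10 in naive cells given MDP and 10.32 in unstimulated cells. The 2 Pam3CSK4-pretreated arrays stood above the other 5, and the level was lowest in naive cells given Pam3CSK4. The difference of repeated Pam3CSK4 from naive cells given Pam3CSK4 was 1.05 (2.06-fold), and the difference of Pam3CSK4 then MDP from naive cells given MDP was 0.79. With the mean of the 3 Neu1 probe sets the first difference was 0.51, short of 2-fold, and the 2 probe sets not used lay below the array median on 4 and 5 of the 7 arrays.

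Man2b1, the lysosomal alpha-mannosidase, moved the other way. Man2b1 was at 11.74 in Pam3CSK4-pretreated cells given Pam3CSK4, 11.73 in Pam3CSK4-pretreated cells given MDP, 12.46 in MDP-pretreated cells given Pam3CSK4, 12.51 in MDP-pretreated cells given MDP, 12.61 in naive cells given Pam3CSK4, 12.71 in naive cells given MDP and 12.73 in unstimulated cells. The 2 Pam3CSK4-pretreated arrays were lowest, at -0.989 and -0.997 from unstimulated cells, just short of 2-fold. With the arrays centred on their medians it was past 2-fold in both, making 2 lysosomal genes lower in each of those comparisons. Its second probe set differed by less, -0.36 and -0.54, and was lowest in MDP-pretreated cells given Pam3CSK4.

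Gla, the alpha-galactosidase, was lowest in naive cells given Pam3CSK4, at 10.94, and highest in Pam3CSK4-pretreated cells given Pam3CSK4, at 11.72, with 11.28 in unstimulated cells. Gusb, the beta-glucuronidase, was at 12.78 and 12.83 on the Pam3CSK4-pretreated arrays and between 12.89 and 13.17 on the other 5. Hexa, a subunit of beta-hexosaminidase, was at 13.74 and 13.74 in Pam3CSK4-pretreated cells given Pam3CSK4 or MDP, 13.95 and 14.03 in MDP-pretreated cells given Pam3CSK4 or MDP, 14.00 and 14.12 in naive cells given Pam3CSK4 or MDP, and 14.15 in unstimulated cells. Gusb and Hexa thus had their lowest levels after Pam3CSK4 pretreatment. Gaa, the acid alpha-glucosidase, was at 10.05 and 10.05 in Pam3CSK4-pretreated cells given Pam3CSK4 or MDP, 9.86 and 9.91 in MDP-pretreated cells given Pam3CSK4 or MDP, 9.76 and 9.87 in naive cells given Pam3CSK4 or MDP, and 9.94 in unstimulated cells. Its 2 highest arrays were those of Pam3CSK4-pretreated cells, and Naglu, an enzyme of heparan sulfate breakdown, spanned 10.29 to 10.55.

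The lipid and phosphate hydrolases include Acp5, which had the largest difference of the set. Acp5 encodes the tartrate-resistant acid phosphatase, an enzyme known from osteoclasts and activated macrophages (chr9:22126727-22135746). Acp5 was at 11.73 in Pam3CSK4-pretreated cells given Pam3CSK4, 11.70 in Pam3CSK4-pretreated cells given MDP, 11.36 in MDP-pretreated cells given Pam3CSK4, 9.19 in MDP-pretreated cells given MDP, 11.38 in naive cells given Pam3CSK4, 9.19 in naive cells given MDP and 8.55 in unstimulated cells. The 4 arrays that saw Pam3CSK4 at any time stood together, the 2 that saw MDP alone were much lower, and unstimulated cells were lowest.

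Against unstimulated cells the Acp5 difference was 3.18 (9.07-fold) after Pam3CSK4 given in both incubations, 3.15 (8.90-fold) after Pam3CSK4 then MDP, 2.81 (7.02-fold) after MDP then Pam3CSK4 and 2.83 (7.13-fold) in naive cells given Pam3CSK4. With MDP alone it was 0.65 in both MDP-pretreated and naive cells. Against naive cells given the same second ligand, Acp5 differed by 2.51 (5.69-fold) in Pam3CSK4-pretreated cells given MDP, 0.35 in Pam3CSK4-pretreated cells given Pam3CSK4 and -0.02 in MDP-pretreated cells given Pam3CSK4. Acp5 had 1 probe set, so no second one was available to set beside it.

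Acp2, the lysosomal acid phosphatase (chr2:91202812-91214098), was at 12.77 in Pam3CSK4-pretreated cells given Pam3CSK4, 12.76 in Pam3CSK4-pretreated cells given MDP, 12.33 in MDP-pretreated cells given Pam3CSK4, 11.76 in MDP-pretreated cells given MDP, 12.21 in naive cells given Pam3CSK4, 12.05 in naive cells given MDP and 11.50 in unstimulated cells. All 6 stimulated arrays were above unstimulated cells, and the 2 Pam3CSK4-pretreated ones were highest, by 1.27 (2.41-fold) and 1.26 (2.39-fold). Of its 3 probe sets 2 were past 2-fold in Pam3CSK4-pretreated cells given Pam3CSK4 and 1 in Pam3CSK4-pretreated cells given MDP, the lowest being 0.96 and 0.92. Acp2 was -0.29 in MDP-pretreated cells given MDP relative to naive cells given MDP, and 0.70 in Pam3CSK4-pretreated cells given MDP relative to the same naive array.

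The lipid hydrolases moved less than 2-fold. Lipa, the acid lipase that frees cholesterol from its esters, was at 12.52 and 12.42 in Pam3CSK4-pretreated cells given Pam3CSK4 or MDP, 12.81 and 13.17 in MDP-pretreated cells given Pam3CSK4 or MDP, 12.74 and 13.02 in naive cells given Pam3CSK4 or MDP, and 13.07 in unstimulated cells. It was lowest on the 2 arrays of Pam3CSK4-pretreated cells. Smpd1, the acid sphingomyelinase, was at 10.08 and 10.14 in Pam3CSK4-pretreated cells given Pam3CSK4 or MDP, 9.70 and 10.08 in MDP-pretreated cells given Pam3CSK4 or MDP, 9.50 and 9.74 in naive cells given Pam3CSK4 or MDP, and 9.93 in unstimulated cells. The lowest of these was in naive cells given Pam3CSK4 and the highest in Pam3CSK4-pretreated cells given MDP. Asah1, the acid ceramidase, lay between 12.44 and 12.67 and Ppt1, which removes palmitate from proteins, between 11.01 and 11.24.

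**Figure D4:**
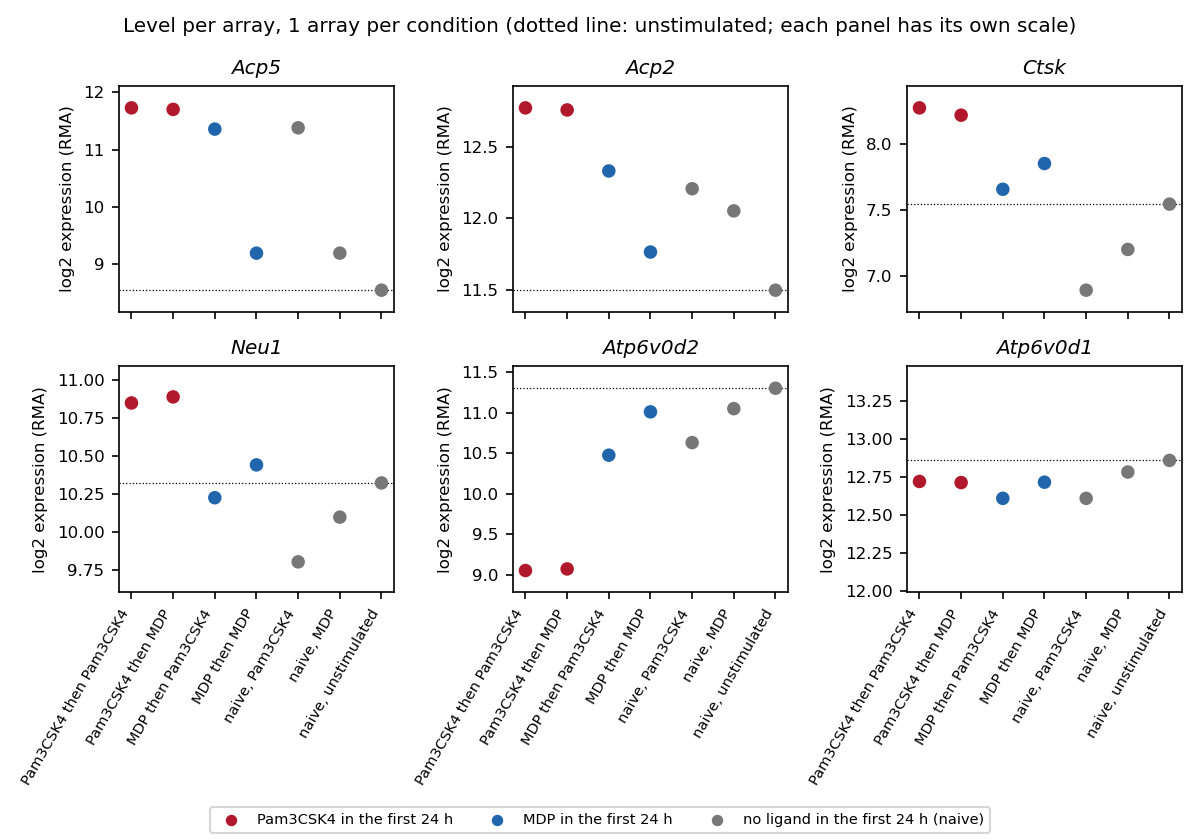
Log2 expression (vertical axis, each panel with its own scale) of the 5 lysosomal genes past 2-fold and of Atp6v0d1 on each of the 7 arrays, coloured by what the first 24 h held, with a dotted line at the unstimulated level. Acp5 is high on all 4 arrays that saw Pam3CSK4, Acp2, Ctsk and Neu1 are highest after Pam3CSK4 pretreatment, and Atp6v0d2 is lowest there while Atp6v0d1 stays between 12.61 and 12.86.

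Among the lipid binding and activator proteins, Npc1 varied most. Npc1 is the membrane protein that passes cholesterol out of the lysosome, and it was at 10.01 in Pam3CSK4-pretreated cells given Pam3CSK4, 9.72 in Pam3CSK4-pretreated cells given MDP, 9.59 in MDP-pretreated cells given Pam3CSK4, 10.01 in MDP-pretreated cells given MDP, 9.60 in naive cells given Pam3CSK4, 10.08 in naive cells given MDP and 10.30 in unstimulated cells. The 2 arrays with Pam3CSK4 as the second ligand only were lowest, at -0.70 and -0.69 from unstimulated cells. Its soluble partner Npc2, which hands cholesterol to Npc1, was between 14.21 and 14.25 on the 4 pretreated arrays and between 14.08 and 14.10 on the 3 naive ones. Psap was at 14.47 and 14.46 in Pam3CSK4-pretreated cells given Pam3CSK4 or MDP, 14.47 and 14.48 in MDP-pretreated cells given Pam3CSK4 or MDP, 14.48 and 14.50 in naive cells given Pam3CSK4 or MDP, and 14.51 in unstimulated cells. No array of Psap stood apart, and Grn, the precursor of the granulins, lay between 14.13 and 14.29.

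The 6 measured membrane proteins each spanned less than 0.5 between the highest and lowest array. All 6 lay below the median of all genes in naive cells given Pam3CSK4 and in naive cells given MDP, but 3 and 4 did with cyclic loess. In Pam3CSK4-pretreated cells 6 did with Pam3CSK4 and 5 with MDP as the second ligand (5 and 5 with cyclic loess), the median differences from unstimulated cells being -0.23 and -0.22.

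Lamp1, whose promoter carries 4 CACGTG copies, lay between 13.94 and 14.13 on all arrays, and Lamp2, needed for fusion with autophagosomes, between 12.85 and 13.16. The macrophage glycoprotein Cd68 was at 14.01 and 14.01 in Pam3CSK4-pretreated cells given Pam3CSK4 or MDP, 14.22 and 14.25 in MDP-pretreated cells given Pam3CSK4 or MDP, 14.21 and 14.26 in naive cells given Pam3CSK4 or MDP, and 14.26 in unstimulated cells. Laptm5, a transmembrane protein of blood cells, was at 13.36 and 13.27 on those 2 and between 13.54 and 13.69 elsewhere. Lamp2, Cd68 and Laptm5 all had their lowest levels after Pam3CSK4 pretreatment, by less than 0.5 from unstimulated cells. Scarb2, the receptor that carries glucocerebrosidase to the lysosome, lay between 11.31 and 11.67. Mcoln1, the calcium channel of the lysosome, was at 9.83 and 9.86 in Pam3CSK4-pretreated cells given Pam3CSK4 or MDP, 9.73 and 9.72 in MDP-pretreated cells given Pam3CSK4 or MDP, 9.51 and 9.62 in naive cells given Pam3CSK4 or MDP, and 9.84 in unstimulated cells. It was lowest in naive cells given Pam3CSK4.

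The proton pump has a soluble V1 part that splits ATP and a membrane V0 part that passes protons, and 1 of the 6 measured subunits was past 2-fold. Atp6v0d2 encodes the d2 form of the V0 stalk subunit, a form known from osteoclasts and macrophages (chr4:19876838-19922566). Atp6v0d2 was at 9.05 in Pam3CSK4-pretreated cells given Pam3CSK4, 9.07 in Pam3CSK4-pretreated cells given MDP, 10.47 in MDP-pretreated cells given Pam3CSK4, 11.01 in MDP-pretreated cells given MDP, 10.63 in naive cells given Pam3CSK4, 11.05 in naive cells given MDP and 11.30 in unstimulated cells. All 6 stimulated arrays were below unstimulated cells, and the 2 Pam3CSK4-pretreated ones were far below the rest.

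From unstimulated cells Atp6v0d2 differed by -2.25 (4.76-fold lower) in Pam3CSK4-pretreated cells given Pam3CSK4 and by -2.23 (4.70-fold lower) in Pam3CSK4-pretreated cells given MDP. From naive cells given the same ligand it differed by -1.58 (2.99-fold lower) with Pam3CSK4 and by -1.98 (3.94-fold lower) with MDP. Atp6v0d2 had 2 probe sets, and with their mean it stayed past 2-fold in all 4 of these comparisons. After 3 h of Pam3CSK4 in naive cells the difference from unstimulated cells was -0.67, short of 2-fold. Its counterpart Atp6v0d1, the d1 form found in most cells, lay between 12.61 and 12.86 on the 7 arrays, at -0.14 and -0.15 in the first 2 comparisons.

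The other pump subunits stayed within 2-fold. Atp6v1a, the catalytic subunit, was at 12.59 and 12.54 in Pam3CSK4-pretreated cells given Pam3CSK4 or MDP, 12.63 and 12.93 in MDP-pretreated cells given Pam3CSK4 or MDP, 12.69 and 12.83 in naive cells given Pam3CSK4 or MDP, and 12.93 in unstimulated cells. The 2 arrays of Pam3CSK4-pretreated cells were the lowest. Atp6v1b2, the other subunit of the V1 ring, was lowest in naive and MDP-pretreated cells given Pam3CSK4, at 12.35 and 12.36, and lay between 12.50 and 12.76 elsewhere. Atp6v1h, a V1 subunit that couples the 2 parts, lay between 11.76 and 11.96, and the accessory protein Atp6ap1 between 12.61 and 12.78. In naive cells all 6 members lay below the median of all genes with Pam3CSK4 and all 6 with MDP (5 and 6 with cyclic loess), and with Pam3CSK4 after MDP 6 did (6 with cyclic loess). Of 13 further measured pump subunits, 0 were past 2-fold in any of the 13 comparisons.

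Tfeb, the regulator among the 40, stayed within 2-fold. It was at 8.81 in Pam3CSK4-pretreated cells given Pam3CSK4, 8.80 in Pam3CSK4-pretreated cells given MDP, 8.65 in MDP-pretreated cells given Pam3CSK4, 8.86 in MDP-pretreated cells given MDP, 8.66 in naive cells given Pam3CSK4, 9.06 in naive cells given MDP and 8.91 in unstimulated cells. The 2 lowest arrays were those with Pam3CSK4 as the second ligand only, and naive cells given MDP were highest. Its messenger level does not measure its activity, which depends on phosphorylation and entry into the nucleus. Of 22 measured regulators of lysosome genes, 0 were higher and 0 lower in Pam3CSK4-pretreated cells given Pam3CSK4 than in unstimulated cells, 0 and 1 in Pam3CSK4-pretreated cells given MDP, and 1 and 2 in MDP-pretreated cells given Pam3CSK4, where the shares of all genes were 2.66% and 2.29%, 2.78% and 2.59%, and 3.03% and 1.8%. Tfec, a relative of Tfeb in macrophages, was 1.05 in MDP-pretreated cells given Pam3CSK4 relative to unstimulated cells, where Rptor was the lowest of the 22. Tfec was -1.55 in Pam3CSK4-pretreated cells given Pam3CSK4 relative to naive cells given Pam3CSK4. There 0 of the 22 were higher and 1 was lower, against 2.41% and 2.3% of all genes.

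Other genes of the lysosome were counted in the same way. Among 37 further hydrolases and cofactors, 1 was higher and 2 lower in Pam3CSK4-pretreated cells given Pam3CSK4 than in unstimulated cells, and 1 was higher and 4 lower in Pam3CSK4-pretreated cells given MDP. Smpdl3b, a sphingomyelinase-like phosphodiesterase, was the higher one in both, at 2.54 and 2.55. The cathepsin Ctsf (-1.61 and -1.37) and the galactosylceramidase Galc (-1.15 and -1.20) were lower in both. Over all genes 2.66% were higher and 2.29% lower in the first of these comparisons, and 2.78% and 2.59% in the second. In naive cells 1 of the 37 was past 2-fold with Pam3CSK4, the heparan sulfatase Sgsh at -1.31, where 1.95% of all genes were lower, and 0 with MDP. Smpdl3b was also the 1 gene at least 2-fold higher than in unstimulated cells in MDP-pretreated cells given MDP or Pam3CSK4. There 0.39% and 3.03% of all genes were higher.

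Among 29 further membrane proteins and transporters, 1 was higher and 3 were lower than in unstimulated cells in both Pam3CSK4-pretreated conditions, against 2.66% higher and 2.29% lower over all genes with Pam3CSK4 as the second ligand and 2.78% and 2.59% with MDP. The channel Mcoln2 was higher, by 1.26 with Pam3CSK4 and 1.33 with MDP as the second ligand, and by 1.79 in naive cells given Pam3CSK4. Its relative Mcoln3 was lower, at -1.68 and -1.74, as were the channel Tpcn1 (-1.42 and -1.48) and the tetraspanin Cd9 (-1.07 and -1.11). Mcoln1, Mcoln2 and Mcoln3 thus differed in direction and size within 1 channel family. Of 24 genes that sort proteins to the lysosome, 1 was past 2-fold in any comparison, Gnptab, which starts the mannose phosphate tag, at -1.07 in Pam3CSK4-pretreated cells given MDP relative to unstimulated cells, where 2.59% of all genes were lower.

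Inhibitors of the proteases were counted as well. Of 9 measured cystatins and protease inhibitors, 2 were higher and 2 lower in Pam3CSK4-pretreated cells given Pam3CSK4 than in unstimulated cells, and 3 were higher and 2 lower in Pam3CSK4-pretreated cells given MDP, against 2.66% and 2.29% of all genes in the first comparison and 2.78% and 2.59% in the second. The secreted inhibitor Slpi stood at 3.64 and 3.82 in these comparisons, and Cst7, the cystatin that inhibits cathepsins in immune cells, at 1.85 and 1.98. In both comparisons Serpinb1a was the lowest of the 9, and the median difference of the 9 was -0.01. Of 20 autophagy genes, 1 was past 2-fold in naive cells given Pam3CSK4, Uvrag at -1.16, against 1.95% of all genes lower. Of 11 genes of osteoclasts and fused macrophages, 1 was higher in both Pam3CSK4-pretreated conditions than in unstimulated cells, the metalloprotease Mmp9 at 3.38 and 3.74, against 2.66% and 2.78% of all genes higher. Of the same 11, 4 were higher in naive cells given Pam3CSK4 and 4 in MDP-pretreated cells given Pam3CSK4, where 2.27% and 3.03% of all genes were. These counts take the values as deposited. Among the genes counted, Ocstamp was at 5.16 in unstimulated cells, below that array's median of 5.50, so the size of its difference is uncertain.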

How the data were processed

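RNA of 7 cultures was labelled and hybridised, 1 Affymetrix array per condition. The deposited values are log2 expression per probe set, which the authors made with RMA (affy), per the submitters' processing notes. Versions and the arrays normalized together are not given in the sources used here. The 45101 probe sets held values of 2.95 to 15.1, used without change. Symbols came from the platform annotation, where 34945 probe sets had 1 symbol, 932 several, 9160 none and 64 were controls. All 40 genes are named, with every array's value for those past 2-fold and for the members with the highest and lowest mean in each role. Other genes are at most 4 per list and comparison, those furthest past 2-fold. Full values of Man2b1 and the second probe sets of named genes were chosen after their values were seen. The members, lists and settings were chosen with earlier results of these data known. Differences were taken between pairs of arrays in 13 comparisons, with no test. The 2-fold count was also run on simulated data. That run gives no error rate for the reported counts, because no condition had a replicate array to measure noise. Alternatives were 3 other scalings (array medians, housekeeping genes, cyclic loess with limma 3.58.1 in R 4.3.3), other probe set summaries, leaving out dim genes, 32 added before log2, and thresholds of 1.5-fold and 3-fold. Python 3.11.15 with numpy 2.4.6 and pandas 2.3.3 was used.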

Additional observations from a re-analysis of the deposited data

Results flagged for a closer look

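Among probe sets that the comparisons do not use, 2 of Ctsc were at least 2-fold above unstimulated cells where the probe set used for the gene was not. One of them was 1.97 higher than in unstimulated cells in naive cells given Pam3CSK4, 1.11 higher in Pam3CSK4-pretreated cells given MDP and 1.97 higher in MDP-pretreated cells given Pam3CSK4. The other was 2.20 higher in naive cells given Pam3CSK4 and 2.28 higher in MDP-pretreated cells given Pam3CSK4.

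For 2 genes the same contrast ran in opposite directions in 2 settings with a size of at least 0.25 in each. Other genes with opposite signs had a smaller difference in 1 of the settings. Acp2 was at -0.29 in MDP-pretreated cells given MDP and at 0.70 in Pam3CSK4-pretreated cells given MDP, each relative to the same array of naive cells given MDP. Npc1 was at -0.48 for Pam3CSK4 against MDP in naive cells and at 0.29 for Pam3CSK4 against MDP in Pam3CSK4-pretreated cells. With 1 array per condition these differences were not tested, and no sample could be tested for standing apart within its group.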

How the results depend on the processing

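No paired analysis was possible because each group had 1 array and every label carries the same replicate number. No difference turned its direction for the 5 genes past 2-fold where it was past 2-fold as reported. With all probe sets of a gene averaged, higher genes numbered 2 (not 1) in naive and in MDP-pretreated cells given Pam3CSK4 relative to unstimulated cells and in MDP then Pam3CSK4 relative to MDP then MDP, and 1 (not 2) in repeated Pam3CSK4 relative to naive cells given Pam3CSK4. With arrays centred on medians, lower genes numbered 2 in both Pam3CSK4-pretreated conditions relative to unstimulated cells. With housekeeping centring, which shifts all genes, the members' medians were 0.21 (Pam3CSK4 then Pam3CSK4), 0.17 (Pam3CSK4 then MDP) and 0.0051 (MDP then Pam3CSK4) relative to unstimulated cells, and 0.31 and 0.17 for repeated Pam3CSK4 and Pam3CSK4 then MDP relative to naive cells given the same ligand. The medians of all genes with that centring were 0.33, 0.29, 0.11, 0.23 and 0.24 in the same comparisons. With 32 added, 1 gene was higher in Pam3CSK4 then MDP relative to naive cells given MDP.

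At 1.5-fold, relative to unstimulated cells, 5 were higher and 2 lower in Pam3CSK4 then Pam3CSK4 (5.16% and 6.58% of all genes), 4 and 3 in Pam3CSK4 then MDP (5.28% and 7.41%), 2 and 2 in MDP then Pam3CSK4 (5.41% and 5.32%), 2 and 3 in naive cells given Pam3CSK4 (4.11% and 6.07%), and 1 was higher with MDP in naive (1.64%) and in MDP-pretreated cells (1.56%). Relative to naive cells given the same ligand, 4 were higher and 3 lower in Pam3CSK4 then MDP (4.95% and 4.89%), and after MDP 1 was higher with Pam3CSK4 (1.76%) and 1 with MDP (2.26%). In repeated Pam3CSK4, Ctsk, Neu1 and Gla were higher (6.77% of all genes) and 2 were lower (5.25%). At 3-fold, 1 was higher than in unstimulated cells in Pam3CSK4 then Pam3CSK4 (1.37%) and in Pam3CSK4 then MDP (1.42%), 1 was higher in Pam3CSK4 then MDP relative to naive cells given MDP (0.934%), and 0 were higher and 0 lower in repeated Pam3CSK4 relative to naive cells given Pam3CSK4 (0.846% and 0.907%). Counts at 1.5-fold and 3-fold that are not listed stayed within 1.5 times of those at 2-fold. Cyclic loess and leaving out less specific probe sets kept the counts of members past 2-fold within 1.5 times in all 13 comparisons. Leaving out dim genes could not change these counts, because every member lay above the array median on every array, so that setting checks nothing here. Cyclic loess brought the members' medians nearer to 0 in most comparisons and changed how many lay below the median of all genes, for MDP then Pam3CSK4 relative to naive cells given Pam3CSK4 to 23, against 15 as deposited. No spread between cultures can be estimated, and values near the top of the scale limit the range that can be seen. The causes of these changes were not tested beyond what each setting alters.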
